A study of Mus musculus with 59 samples.

Results

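The results below concern 8 carbonic anhydrase genes, Car14, Car4, Car12, Car2, Car3, Car8, Car13 and Car5b, measured with 10 probes (Car4 and Car8 had 2 probes each) among the 37163 genes or transcripts and 55681 probes of the array. All probes of these genes were taken. The set was chosen by the log2 change of Car14 between high-dose and vehicle lung, which was among the largest falls of that comparison. Those arrays therefore selected the gene, and the high-dose lung values of all members are given as a description, with no test. Car14 was measured with 1 probe for transcript NM_011797, Car4 with 2 for NM_007607, Car12 with 1 for NM_178396, Car2 with 1 for NM_009801, Car3 with 1 for NM_007606, Car8 with 2 for NM_007592, Car13 with 1 for NM_024495 and Car5b with 1 for NM_181315.

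Carbonic anhydrases are zinc enzymes that interconvert carbon dioxide and water with bicarbonate and a proton. Family members differ in where they act: some face the outside of the cell from the plasma membrane, some work in the cytosol and some in mitochondria. In lung, a membrane-anchored form on the capillary endothelium takes part in the release of carbon dioxide from the blood. In stomach and liver, cytosolic and mitochondrial forms supply bicarbonate and protons for secretion and for metabolism. Benzo(b)fluoranthene (BbF) is a polycyclic aromatic hydrocarbon, a class of combustion products that bind the aryl hydrocarbon receptor.

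Male Muta™Mouse, about 16 weeks old, which carry a bacterial lacZ reporter as a transgene for mutation assays, were dosed by oral gavage once a day for 28 days with BbF dissolved in olive oil, and tissue was taken 72 hours after the last dose. Vehicle mice (1 to 5) received olive oil alone, and the others received 25 (low, mice 6 to 10), 50 (medium, mice 11 to 15) or 100 (high, mice 16 to 20) mg/kg-bw/day. Lung, liver and forestomach of the same animals were arrayed, with 5 mice in each of the 12 groups except low-dose lung, where 4 mice (6, 8, 9 and 10) were analysed, so that 59 arrays entered. All mice carry the transgene, all received olive oil, and the labels disagree on the compound, the titles and treatment protocol naming BbF and another field benz(a)anthracene. Each value is the log2 ratio of tissue RNA (Cy5) to a reference RNA pooled from mouse cell lines (Cy3) on the same array, so 0 stands for the level of the reference, and values of different probes are not comparable as levels. In these bulk tissues, fewer cells of a type and less RNA per cell cannot be told apart. The number of arrays limits the precision.

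Between 44.8% and 68.8% of probes were well above background in Cy5 on lung arrays and between 39.6% and 52.0% on forestomach arrays. One of the 3 liver slides stood apart. Its 8 arrays (vehicle mouse 5, low-dose mice 6 and 10, medium-dose mice 11 and 15, high-dose mice 18, 19 and 20) had between 10.7% and 12.9% of probes above background, against 37.1% to 46.2% on the other 12 liver arrays, and their ratios lay closer to 0. It is called the low-signal slide below. The high-dose changes of Car14, Car2, Car3 and Car8 (first probe) in liver are given with and without it. Other liver results include it unless stated. Markers of each tissue were checked against the labels. The mean log2 ratio of 6 alveolar type II markers lay between 4.84 and 5.46 on lung arrays and at or below 0.11 on all others, and the mean of 7 hepatocyte markers between 5.13 and 7.24 in liver. The mean of 8 squamous epithelium markers lay between 3.97 and 4.52 in forestomach. In lung it was at most 0.20 except in low-dose mouse 6, whose lung array had a mean of 2.77 with a skeletal muscle mean of 3.23. Forestomach arrays also held markers of glandular stomach, with means between 0.25 and 6.46. These values are given again beside the members they moved with.

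Car14 encodes a transmembrane carbonic anhydrase whose catalytic domain faces the outside of the cell. In lung, the log2 ratios of Car14 were 2.76, 2.67, 2.11, 2.60 and 2.78 in vehicle mice 1 to 5. They were 1.72, 1.48, 1.82 and 1.85 in low-dose mice 6, 8, 9 and 10. In medium-dose mice 11 to 15 they were 1.25, 1.04, 0.69, 1.41 and 1.27, and in high-dose mice 16 to 20 they were 0.81, 0.61, 0.46, 0.20 and 0.50. Every low-dose mouse lay below every vehicle mouse, every medium-dose mouse lay below every low-dose mouse, and the medium and high doses overlapped only through mice 13 and 16. All 19 lung arrays had Car14 well above background in Cy5.

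The group means of Car14 in lung were 2.58 ± 0.28 (SD, n = 5), 1.72 ± 0.17 (n = 4), 1.13 ± 0.28 (n = 5) and 0.52 ± 0.22 (n = 5) from vehicle to the high dose. Relative to vehicle, the fitted log2 change of the low dose was -0.87 ± 0.15 (SE), that of the medium dose -1.45 ± 0.14 and that of the high dose -2.07 ± 0.14. The last change ranked 5 among the falls of all genes, between Sln (-2.07) and Cyp26b1 (-2.03), and the largest fall was that of Gpihbp1 (-3.36). The 3 dose groups were compared with the same vehicle arrays that selected Car14, so none of these falls is given a p.

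The same order held on each of the 3 lung slides taken alone. On the slide with 1 vehicle mouse the means from vehicle upward were 2.78, 1.85, 1.31 and 0.35. On another the means were 2.35, 1.65, 0.69 and 0.46, and on the remaining slide they were 2.71, 1.72, 1.04 and 0.71. With the slide as a block, the changes were -0.84, -1.51 and -2.12. Median centring of the arrays in place of loess gave smaller falls of -0.48, -0.89 and -1.39.

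In lung, the medium and low doses were also compared, 2 groups whose values did not select the gene, although the SE of the fit pools the spread of all 4 dose groups. There, Car14 differed by -0.58 ± 0.15 (SE), and all 5 medium-dose mice lay below all 4 low-dose mice, but the adjusted p was 0.977 by limma with Benjamini-Hochberg adjustment over all probes. No member was called in that comparison, nor was any of the 37163 genes (0%). At an unadjusted p under 0.05, limma found 2634 of 55681 probes and 5 of the 10 member probes, those of Car14, Car8 (both), Car12 and Car13. The differences of Car12 and Car13 rested on low-dose mouse 6. Without that mouse the difference of Car12 moved from -0.61 to -0.08 and that of Car13 from -0.38 to -0.14, while that of Car14 stayed at -0.58.

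**Figure D1:**
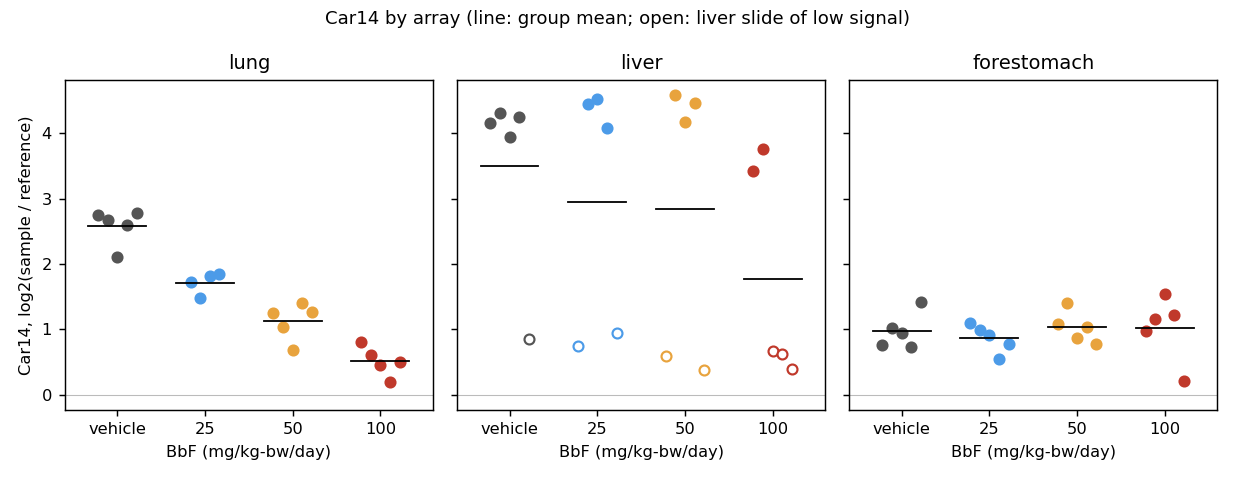
Log2 ratio of Car14 to the reference RNA (y axis) on each array of lung, liver and forestomach, by dose of BbF in mg/kg-bw/day (x axis); each point is 1 mouse and each line a group mean, and open circles mark the low-signal liver slide. Lung values step down from a vehicle mean of 2.58 to a high-dose mean of 0.52, liver values split by slide, and forestomach values lie between 0.20 and 1.55 at all doses.

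In liver, Car14 split by slide more than by dose. Off the low-signal slide it was 4.16, 4.31, 3.94 and 4.25 in vehicle mice 1 to 4, 4.44, 4.52 and 4.08 in low-dose mice 7, 8 and 9, and 4.59, 4.18 and 4.46 in medium-dose mice 12, 13 and 14. High-dose mice 16 and 17 had 3.42 and 3.76, below all other livers off that slide. On the low-signal slide all 8 values lay between 0.37 and 0.94, and the probe was well above background on 4 of the 8. These were 1 of 1 vehicle, 2 of 2 low-dose, 1 of 2 medium-dose and 0 of 3 high-dose arrays. The high-dose mean minus the vehicle mean was -0.28 within that slide and -0.64 within the other slide with high-dose livers. Over all arrays the high-dose change was -1.73 ± 1.09 (SE, adjusted p 0.700). Without the low-signal slide it was -0.57 ± 0.15 (adjusted p 0.0854), with changes of 0.18 ± 0.13 and 0.25 ± 0.13 at the low and medium doses, and Car14 was not called in liver either way.

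In forestomach, Car14 was 0.77, 1.02, 0.95, 0.73 and 1.42 in vehicle mice and 0.98, 1.16, 1.55, 1.22 and 0.20 in high-dose mice 16 to 20. The groups overlapped, with mouse 20 lowest. The high-dose change was 0.04 ± 0.19 (SE, 95% interval -0.36 to 0.45, adjusted p 0.976), and the low and medium changes were -0.11 and 0.06. The difference of the high-dose effect between liver and forestomach was -1.77 ± 1.13 (adjusted p 0.739) and -0.61 ± 0.30 without the low-signal slide (adjusted p 0.702). Whether the fall in lung differed from the effects elsewhere was not tested, because the lung effect selected the gene.

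Sequence upstream of the start was available in RefSeq (GRCm38.p6) for 4 of the 8 members, Car14, Car4, Car12 and Car5b, as windows of 300 bases, of which 250 precede the annotated start. The window of Car14 (chr3:95904636-95904935, minus strand) is shown because its transcript fell. That of Car5b (chrX:164027961-164028260, minus strand), a member not called at any dose, is shown beside it because it is the member with matches to the core of the aryl hydrocarbon receptor's site. This core, GCGTG read on both strands, is in capitals where present. The search gave the following windows, 5′ to 3′.
Car14: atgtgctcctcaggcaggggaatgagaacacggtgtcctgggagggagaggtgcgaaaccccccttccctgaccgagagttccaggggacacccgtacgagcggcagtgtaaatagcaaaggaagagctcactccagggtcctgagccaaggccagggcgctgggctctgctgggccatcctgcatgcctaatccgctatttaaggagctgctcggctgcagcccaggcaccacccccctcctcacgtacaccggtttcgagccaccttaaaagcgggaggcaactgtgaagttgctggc
Car5b: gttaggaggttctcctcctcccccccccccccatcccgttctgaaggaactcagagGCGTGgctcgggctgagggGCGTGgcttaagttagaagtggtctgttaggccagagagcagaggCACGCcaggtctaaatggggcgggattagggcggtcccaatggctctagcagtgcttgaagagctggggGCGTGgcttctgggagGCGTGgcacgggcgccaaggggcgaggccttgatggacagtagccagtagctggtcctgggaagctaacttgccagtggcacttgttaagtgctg
The Car14 window held 0 matches and the Car5b window 5, of which 1 was on the opposite strand. The windows of Car4 (chr11:84957504-84957803) and Car12 (chr9:66713436-66713735) also held 0. Of all 32851 windows of this length in the table, 32.4% held at least 1 match. A match is a run of letters, and nothing about the receptor follows from its presence or absence here.

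Car4, anchored to the outer face of the membrane and known from lung capillaries, had log2 ratios by its first probe of 3.98, 3.99, 3.91, 3.73 and 4.44 in vehicle lungs and 4.36, 4.29, 4.14, 4.43 and 4.36 in high-dose lungs. The high-dose values all lay within the vehicle range. By this probe the low-dose change was -0.12 ± 0.19 (SE, adjusted p 0.929), the medium-dose change 0.16 ± 0.18 (adjusted p 0.764) and the high-dose change 0.31 ± 0.18. The second probe gave -0.03 ± 0.16 (adjusted p 0.984), 0.14 ± 0.15 (adjusted p 0.752) and 0.37 ± 0.15. By that probe 4 of 5 high-dose lungs lay above all vehicle lungs, and 1 lay within their range. The vehicle arrays behind the low and medium tests are those that selected Car14.

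Car12, a transmembrane form found on many epithelia and in kidney, had ratios far below 0 in lung. Vehicle lungs had -1.99, -2.25, -2.05, -2.10 and -2.21 and high-dose lungs -2.25, -2.41, -2.39, -2.29 and -2.26. The high-dose lungs all lay below the vehicle lungs, the nearest pair being equal to 2 decimals, with a change of -0.20 ± 0.27. Low-dose lungs had -0.07, -2.31, -2.09 and -2.26. The value of -0.07 came from mouse 6, whose lung also had the squamous mean of 2.77. Without this mouse the low-dose change of Car12 moved from 0.44 to -0.10 (adjusted p 0.728 and 0.856).

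**Figure D2:**
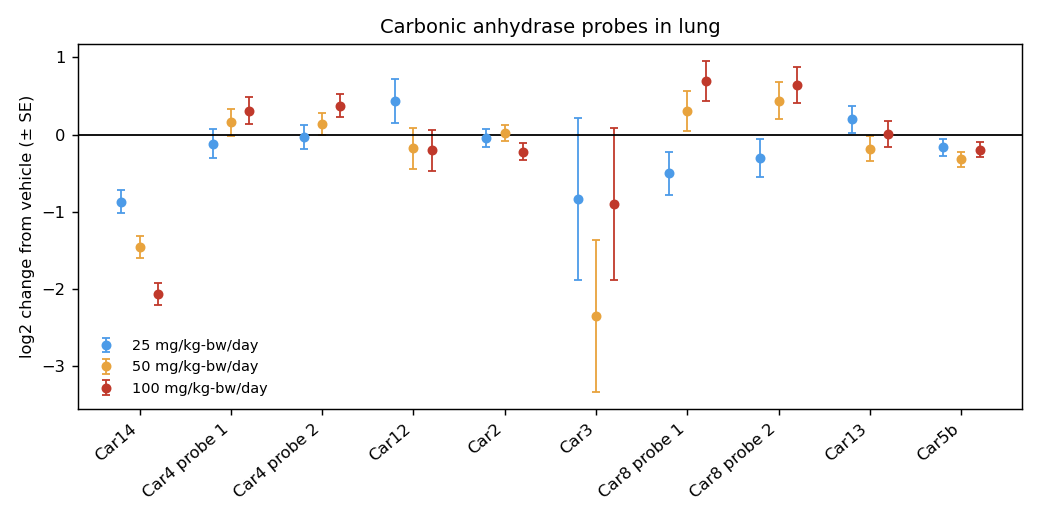
Fitted log2 change from vehicle in lung (y axis) of each of the 10 carbonic anhydrase probes (x axis) at each dose of BbF in mg/kg-bw/day; points are limma estimates and bars their SE, over 5 mice a group (4 at the low dose). Car14 steps from -0.87 to -2.07 with SEs of 0.14 to 0.15, whereas Car3 has SEs near 1 and the remaining probes lie between -0.50 and 0.70.

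Of the cytosolic members, Car2, the abundant isoform of red cells, kidney and acid-secreting cells, had a narrow range in lung. Its log2 ratios were 4.75, 4.57, 4.55, 4.58 and 4.99 in vehicle mice, 4.53 to 4.78 in low-dose mice, 4.36 to 4.94 in medium-dose mice, and 4.33, 4.51, 4.42, 4.62 and 4.45 in high-dose mice. Of the high-dose lungs, 4 of 5 lay below all vehicle lungs, with a change of -0.22 ± 0.11. At the low and medium doses it was -0.05 ± 0.11 (adjusted p 0.960) and 0.02 ± 0.11 (adjusted p 0.962).

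Car8, a carbonic anhydrase-related protein that has lost catalytic activity and binds the inositol trisphosphate receptor, had higher ratios in high-dose lung. By its first probe it was 3.05, 3.01, 2.71, 2.61 and 2.15 in vehicle lungs, 1.55, 2.40, 2.41 and 2.47 in low-dose lungs, 3.23, 2.71, 3.25, 2.42 and 3.47 in medium-dose lungs and 3.16, 3.91, 4.07, 2.51 and 3.37 in high-dose lungs. By this probe, 4 of 5 high-dose lungs lay above all vehicle lungs. The second probe separated them less, with 1.94, 3.34, 3.21, 2.13 and 2.73 in high-dose lungs against at most 2.48 in vehicle lungs. The high-dose change was 0.70 ± 0.26 by the first and 0.65 ± 0.23 by the second probe. The medium dose gave 0.31 ± 0.26 (adjusted p 0.671) and 0.44 ± 0.23 (adjusted p 0.420), and the low dose -0.50 ± 0.28 (adjusted p 0.646) and -0.30 ± 0.25 (adjusted p 0.814). The lowest low-dose value by either probe was that of mouse 6. Between the medium and low doses, whose values did not select Car14, Car8 differed by 0.81 ± 0.28 and 0.74 ± 0.25 (adjusted p 0.991 for both), and by 0.59 and 0.60 without mouse 6. The reference channel was not above background for Car8 on any lung array, so these ratios rest on the tissue channel.

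Car13, a cytosolic form with catalytic activity, was between -0.94 and -0.63 in vehicle lungs and between -1.04 and -0.60 in high-dose lungs, which spanned the vehicle range (change 0.01 ± 0.16). At the low and medium doses it changed by 0.20 ± 0.17 (adjusted p 0.830) and -0.18 ± 0.16 (adjusted p 0.689), and the low-dose value without mouse 6 was -0.05 (adjusted p 0.976). The lung of mouse 6 stood apart again, at 0.16 against -1.17 to -0.63 in the other low-dose lungs. Car5b, one of the mitochondrial forms, was well above background in Cy5 on 2 of 5 vehicle, 1 of 4 low-dose, 1 of 5 medium-dose and 3 of 5 high-dose lungs. Its values lay between -0.57 and 0.12 in lung, and its changes were -0.17 ± 0.11 (adjusted p 0.718), -0.32 ± 0.10 (adjusted p 0.114) and -0.19 ± 0.10. With so few arrays above background, only a coarse level of Car5b was measured.

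Car3, a cytosolic form abundant in liver, fat and skeletal muscle, had within-group SDs of 0.66 to 2.34 in lung. In vehicle lungs it was 4.16, 4.86, -0.17, 3.39 and 0.92, and in high-dose lungs 2.93, -0.26, 0.97, -0.17 and 5.23. Low-dose lungs had 4.00, 1.24, 0.27 and 1.71 and medium-dose lungs 0.76, 0.75, -0.18, 0.75 and -0.65. The groups overlapped at every dose. The low-dose change was -0.83 ± 1.05 (adjusted p 0.904), the medium-dose change -2.35 ± 0.99 (adjusted p 0.271) and the high-dose change -0.90 ± 0.99.

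Markers of fat moved broadly with Car3 between lung arrays, though not on every array. Vehicle mouse 5 and high-dose mouse 16 had adipocyte means of 1.95 and 1.93, with Car3 at 0.92 and 2.93. The mean log2 ratio of 8 adipocyte markers, among them Adipoq and Plin1, was 3.97 in the lung of high-dose mouse 20, where Car3 was 5.23, and 3.34 in that of vehicle mouse 2, where Car3 was 4.86. It was 0.74 in vehicle mouse 3 and 0.67 in medium-dose mouse 13, where Car3 was -0.17 and -0.18. Between groups the adipocyte mean ranged from 0.74 to 3.34 in vehicle lungs, 0.72 to 2.37 in low-dose, 0.67 to 1.32 in medium-dose and 0.90 to 3.97 in high-dose lungs. Between 4 and 7 of the 8 markers were well above background on these arrays. The lung of mouse 6, with Car3 at 4.00, also had the skeletal muscle mean of 3.23. The part of these tissues in the spread of Car3 was not tested.

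**Figure D3:**
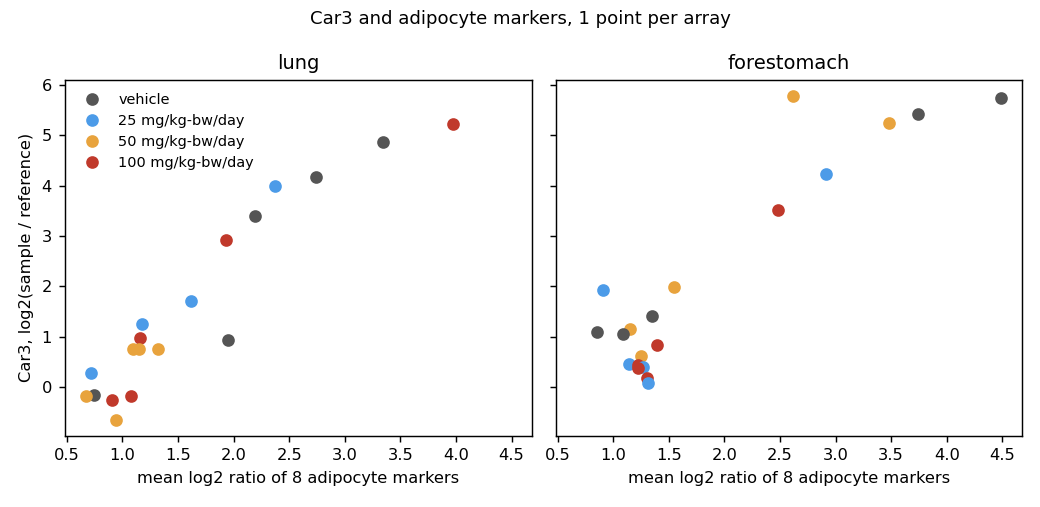
Log2 ratio of Car3 (y axis) against the mean log2 ratio of 8 adipocyte markers (x axis) on each lung and forestomach array, coloured by dose; each point is 1 mouse. In lung the points run from an adipocyte mean of 0.67 with Car3 at -0.18 (mouse 13) to 3.97 with 5.23 (mouse 20), and points of several doses are mixed along the axis.

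Forestomach showed the same spread of Car3. Vehicle mice had 1.40, 1.10, 5.43, 1.05 and 5.75 and high-dose mice 0.83, 0.17, 0.37, 0.43 and 3.51. Of the high-dose mice, 4 of 5 lay below all vehicle mice, and mouse 20 lay within their range. The high-dose change was -1.88 ± 1.17 (SE, adjusted p 0.700). Vehicle mice 3 and 5, with the highest Car3 of their group, had adipocyte means of 3.74 and 4.49, against 0.85 to 1.35 in the others. The array of mouse 5 also had a skeletal muscle mean of 3.42, against 0.47 to 0.72 in the other vehicle mice. High-dose mouse 20 had an adipocyte mean of 2.48, against 1.22 to 1.39 in the others of its group. The highest Car3 of the tissue, 5.78, was in medium-dose mouse 12, whose array also had means of 4.43 for skeletal muscle, 2.61 for adipocyte and 4.03 for hepatocyte markers.

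A gene was called where 1 of its probes changed 1.5-fold or more with an adjusted p of 0.05 or less. In lung, 0 of the 7 members other than Car14 were called at any dose, where the shares of all genes called were 0.449% (low), 0.638% (medium) and 1.93% (high). Car14 is left out of that count because its fall selected it, and nothing is read from the high-dose count. The median log2 change of the 8 members was -0.11, -0.18 and -0.20 in order of dose, against 0.00109, -0.00117 and -0.00290 over all genes. Over the 10 member probes it was -0.14, -0.08 and -0.09. Both medians include Car14, which selected the set, so nothing is read from them. Of the 7 others in the low and medium comparisons, limma's unadjusted p was under 0.05 for Car3 and Car5b at the medium dose and for none at the low dose, against 7838 and 5053 of all 55681 probes.

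Liver held 0 called members at each dose, where 0%, 0% and 0.00538% of all genes were called at the low, medium and high doses, and none of the 10 member probes had an unadjusted p under 0.05 by limma (1897, 2523 and 4153 of all 55681 probes did). Car2, not called over all arrays, was called when the low-signal slide was left out. Off the slide, Car2 was 1.10, 1.04, 1.01 and 1.23 in vehicle mice 1 to 4, 1.68, 1.65 and 1.43 in low-dose mice 7, 8 and 9, 2.18, 1.70 and 1.72 in medium-dose mice 12, 13 and 14, and 1.90 and 3.31 in high-dose mice 16 and 17. All dosed livers lay above all vehicle livers there. On the slide, all 8 arrays lay between -0.36 and 0.23 and none had Car2 well above background.

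Over all liver arrays, the high-dose change of Car2 was 0.21 ± 0.64 (SE, adjusted p 0.916). Without the low-signal slide it was 1.51 ± 0.25 (adjusted p 0.0105, 4 vehicle and 2 high-dose livers), after 0.49 ± 0.22 (adjusted p 0.626) and 0.77 ± 0.22 (adjusted p 0.159) at the low and medium doses. With the slide as a block it was 0.91 ± 0.21 (adjusted p 0.0486). Both high-dose livers off the low-signal slide shared 1 slide with vehicle mice 1 and 2, and the difference of means within that slide was 1.53. On the low-signal slide itself it was 0.14. The call without that slide rests on 2 high-dose mice, and over all arrays the change was -0.35 without mouse 17.

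Car8 was not called in liver with or without the low-signal slide. Off it, by its first probe vehicle livers had 1.95, 1.93, 1.91 and 1.81, low-dose livers 2.71, 2.27 and 1.96, medium-dose livers 2.01, 2.83 and 1.65, and high-dose livers 2.10 and 3.10. Low-dose and high-dose livers lay above all vehicle livers, and 1 medium-dose liver lay below them. The changes without the slide were 0.41 ± 0.25, 0.26 ± 0.25 and 0.70 ± 0.28 (adjusted p 0.737, 0.773 and 0.305), and by the second probe 0.23 ± 0.14, 0.33 ± 0.14 and 0.38 ± 0.16 (adjusted p 0.744, 0.408 and 0.358). Over all arrays the high-dose change by the first probe was -0.43 ± 0.68 (adjusted p 0.826).

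**Figure D4:**
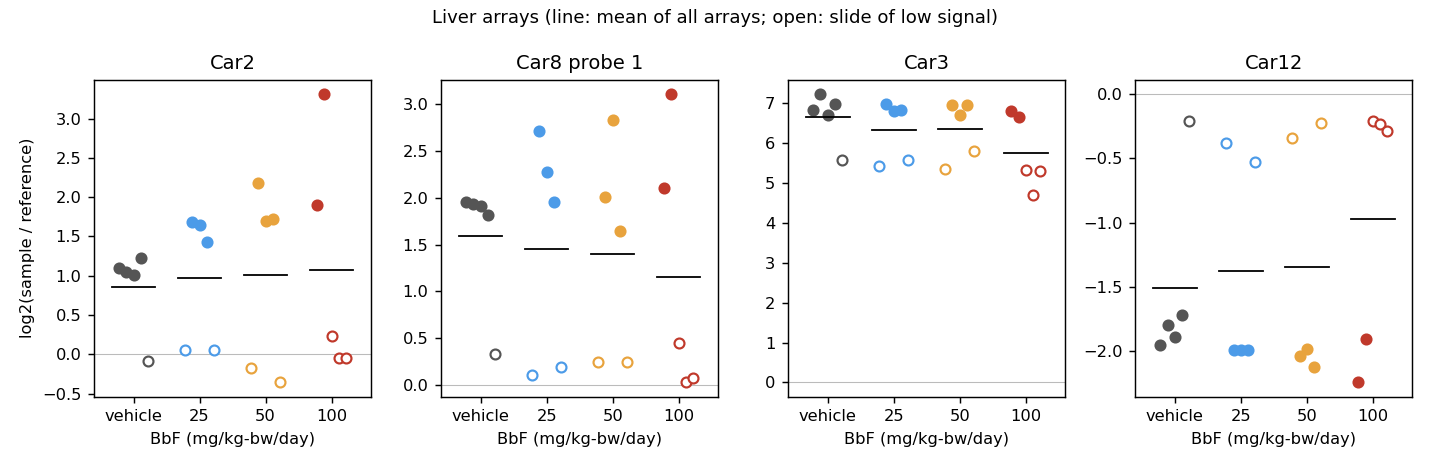
Log2 ratio to the reference RNA (y axes, a scale of its own in each panel) of Car2, Car8 by its first probe, Car3 and Car12 on each liver array by dose in mg/kg-bw/day (x axis); each point is 1 mouse, open circles mark the low-signal slide and lines the means of all arrays. Car2 off that slide lies between 1.01 and 1.23 in vehicle and at 1.90 and 3.31 at the high dose, while open circles stay between -0.36 and 0.23.

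Car3 in liver off the low-signal slide was 6.84, 7.23, 6.70 and 6.97 in vehicle livers and 6.80 and 6.67 in high-dose livers, and on the slide between 4.70 and 5.79. The high-dose change was -0.91 ± 0.46 (SE, adjusted p 0.679) over all arrays and -0.20 ± 0.13 (adjusted p 0.590) without the slide. Car12 lay between -2.25 and -1.72 off the slide and between -0.53 and -0.21 on it, and Car13 between -1.52 and -0.77 and between -0.19 and 0.17. Neither Car13 nor Car5b nor the first probe of Car4 was well above background in Cy5 on any liver array.

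Forestomach also held 0 called members, where 0%, 0% and 0.102% of all genes were called at the low, medium and high doses. None of the 10 member probes had an unadjusted p under 0.05 by limma at any dose, against 2574, 3161 and 4847 of all probes. Car2 was high in this tissue, at 5.70, 5.45, 5.73, 5.41 and 5.71 in vehicle mice and 5.53, 5.38, 5.41, 5.51 and 5.75 in high-dose mice. The groups overlapped, with a high-dose change of -0.08 ± 0.18 (SE, 95% interval -0.45 to 0.29, adjusted p 0.938). At the medium dose 4 of 5 mice lay above all vehicle mice (change 0.20 ± 0.18, adjusted p 0.910), and the highest value of all, 6.55, was in low-dose mouse 9.

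Car12 and Car13 were also high in forestomach, a tissue lined by squamous epithelium. Car12 was 1.89, 2.41, 2.38, 2.47 and 2.43 in vehicle mice and 2.10, 2.59, 2.46, 2.58 and 2.71 in high-dose mice, a change of 0.17 ± 0.21 (SE, adjusted p 0.882). Car13 was 2.08, 2.67, 2.47, 2.61 and 2.31 in vehicle mice and 2.12, 2.63, 2.69, 2.27 and 2.57 in high-dose mice, a change of 0.03 ± 0.20 (adjusted p 0.986). At the low and medium doses the changes of both lay between -0.20 and -0.10, with adjusted p between 0.955 and 0.978.

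The lowest Car12 and Car13 were on arrays with the highest levels of the glandular stomach markers, but not every array with high levels had low values of these members. Low-dose mouse 9 had the highest mean of the 8 markers, 6.46, with the lowest Car12 (1.42) and Car13 (1.80) of the tissue. Medium-dose mouse 13 followed with 6.06, 1.60 and 1.82, and vehicle mouse 1 with 6.04, 1.89 and 2.08. Medium-dose mouse 12 had the lowest mean, 0.25, with 2.69 and 2.64, and high-dose mouse 20 had 0.59 with 2.71 and 2.57. High-dose mouse 17, with a mean of 5.39, still had 2.59 and 2.63, and low-dose mouse 10, with 5.70, had 2.44 for both. In the groups the marker mean ranged from 0.91 to 6.04 in vehicle, 0.95 to 6.46 in low-dose, 0.25 to 6.06 in medium-dose and 0.59 to 5.74 in high-dose mice, so every dose held arrays of both kinds. Between 2 and 8 of the 8 markers were well above background. The part of the mixture in the values of Car12 and Car13 was not tested.

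**Figure D5:**
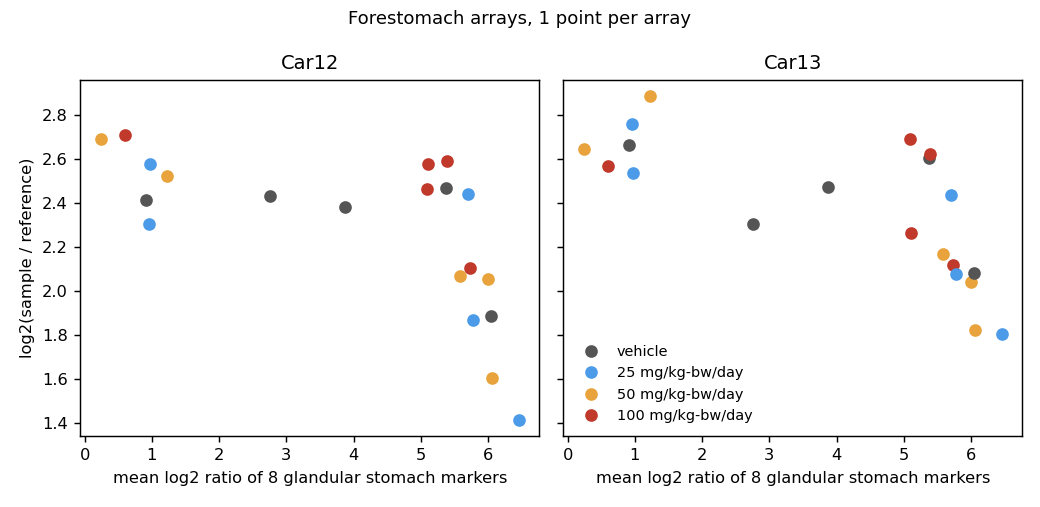
Log2 ratio of Car12 and Car13 (y axis) against the mean log2 ratio of 8 glandular stomach markers (x axis) on each of the 20 forestomach arrays, coloured by dose; each point is 1 mouse. The lowest Car12 and Car13, 1.42 and 1.80 in mouse 9, are on the array with the highest marker mean, 6.46, and doses are mixed along the axis.

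The high-dose effect was compared between liver and forestomach, which share no array with the selection of Car14. None of the 8 members differed, where 0.0404% of all genes did, and none of the member probes had an unadjusted p under 0.05 by limma (3909 of all probes did). For Car2 the difference was 0.30 ± 0.68 (SE, adjusted p 0.909). Without the low-signal slide it was 1.59 ± 0.34 (adjusted p 0.0398), and with the slide as a block 1.00 ± 0.28 (adjusted p 0.196). For Car3 it was 0.98 ± 1.32 (adjusted p 0.832) and for Car8 -0.63 ± 0.71 and -0.05 ± 0.48 by the 2 probes (adjusted p 0.800 and 0.982).

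The levels of the members in vehicle mice were compared between tissues, a comparison the selection did not use, although it shares the vehicle lung arrays. Of the 8 members, 4 differed between lung and liver, where 30.5% of all genes did, 6 between lung and forestomach (24.2%) and 6 between liver and forestomach (25.5%). The count between lung and forestomach includes Car14, and nothing is read from it for that gene. Car5b was the 1 member called in none of the 3 comparisons.

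Car14 was highest in liver, with 3.50 ± 1.49 (SD, n = 5), then lung with 2.58 ± 0.28 and forestomach with 0.98 ± 0.27. Lung minus liver was -0.92 ± 0.50 (SE) over all arrays, where the liver of mouse 5 on the low-signal slide had 0.85. Without that slide the difference was -1.58 ± 0.15. Lung exceeded forestomach by 1.61 ± 0.50, a call that did not hold without mouse 1, 2, 3 or 4. Liver exceeded forestomach by 2.52 ± 0.50 (adjusted p 0.000852). The high-dose lungs, at 0.20 to 0.81, overlapped those of the forestomach arrays, at 0.20 to 1.55.

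Car4 was higher in lung than in the other tissues. By its first probe lung was at 4.01 ± 0.26 (SD, n = 5), and the probe was not well above background in any vehicle liver or forestomach. On the scale of Cy5 signal adjusted between arrays, with the lowest signal well above background as the floor, it was at least 22.0-fold higher in lung than in liver and at least 21.7-fold higher than in forestomach. These bounds hold for Cy5 signal alone, which is open to dye bias without a dye swap. The measured mean ratios, to which the adjusted p of 4.79e-13 and 5.28e-13 belong, lay 16.9-fold and 14.6-fold apart. By the second probe, which was above background on every array, lung exceeded liver by 1.18 ± 0.15 and forestomach by 0.93 ± 0.15 in log2 ratio (SE, adjusted p 7.01e-06 and 0.000116). Both probes had the same direction and differed in size. With median centring the values of the second probe were 1.52 and 0.79 and did not pass (adjusted p 0.103 and 0.564).

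Car8 was highest in lung, then liver, then forestomach. Lung exceeded liver by 1.12 ± 0.28 and 1.10 ± 0.23 by the 2 probes (SE, adjusted p 0.00458 and 0.00103), and liver exceeded forestomach by 1.54 ± 0.28 by the first (adjusted p 0.000409), which was well above background on 1 of 5 vehicle forestomachs. The second probe was above background on none of them, so it gave bounds of Cy5 signal. Lung was at least 2.65-fold higher than forestomach, and liver at least 1.29-fold higher, a bound short of the 1.5-fold of the call rule. For liver against forestomach, the adjusted p by limma belongs to the measured log2 ratios. It was 0.0189, and 0.0735 to 0.105 without mouse 1, 2, 3 or 4.

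Car2 was highest in forestomach, from 5.60 ± 0.16 (SD, n = 5) there through lung at 4.69 ± 0.19 to liver at 0.86 ± 0.54. In vehicle forestomachs, the glandular stomach marker means of mice 2, 5, 3, 4 and 1 were 0.91, 2.76, 3.87, 5.37 and 6.04. Their Car2 values, 5.45, 5.71, 5.73, 5.41 and 5.70, did not run in that order. The part of glandular stomach in Car2 was not tested. Lung was lower than forestomach by a log2 difference of -0.91 ± 0.20 (SE, adjusted p 0.00173) and higher than liver by 3.83 ± 0.20 (adjusted p 2.34e-10). Car3 was highest in liver at 6.67 ± 0.64. Lung differed from liver by -4.03 ± 1.07 (adjusted p 0.00656), and liver from forestomach by 3.72 ± 1.07 (adjusted p 0.0133, and 0.0721 to 0.0940 without mouse 1, 2 or 4), while lung and forestomach, both spread between mice, differed by -0.31 ± 1.07 (adjusted p 0.888).

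Car12 and Car13 were higher in forestomach than in the other tissues. Car12 was at 2.32 ± 0.24 (SD, n = 5) in forestomach, with lung lower by -4.44 ± 0.26 (SE, adjusted p 1.46e-09) and liver against forestomach at -3.83 ± 0.26 (adjusted p 7.62e-09). Lung and liver did not differ past the threshold (-0.61 ± 0.26, adjusted p 0.0800). Vehicle liver was at -1.51 over all arrays and -1.84 without the low-signal slide, against -2.12 in lung. Car13 was at 2.43 ± 0.24 in forestomach, with lung against forestomach at -3.21 ± 0.17 (adjusted p 5.49e-10). It was not well above background in vehicle liver, so forestomach was at least 9.27-fold higher than liver in Cy5 signal. The adjusted p of 3.97e-10 by limma belongs to the measured log2 ratios, with means of 2.43 and -0.83. Car5b was above background on 2 of 5 vehicle lungs, 0 of 5 livers and 3 of 5 forestomachs, at -0.08 ± 0.22, -0.33 ± 0.24 and 0.03 ± 0.35.

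Among the other 8 carbonic anhydrases listed (Car1, Car5a, Car6, Car7, Car9, Car10, Car11 and Car15), 0 were called at any dose in any tissue. Between 0% and 1.93% of all genes were called in these comparisons, so little can be read from that count. Their median log2 change in lung was -0.08, -0.18 and -0.13 in order of dose. Between vehicle tissues 6 of the 8 were called in at least 1 comparison, all but Car10 and Car15, where 41.2% of all genes were. Car5a, the mitochondrial form of liver, was not well above background in any vehicle lung, and its Cy5 signal was at least 27.8-fold higher in liver than in lung. The adjusted p of 2.51e-07 by limma belongs to the measured log2 ratios, which differed by -4.61 ± 0.43 (lung minus liver). Car1, a red cell form, was lower in lung than in liver by both of its probes. Car6 was called between lung and liver without being well above background in either, so no fold is given. Car7 was lower in lung than in liver (-1.30 ± 0.27, adjusted p 0.000970) and Car11 lower in lung than in forestomach (-0.85 ± 0.15, adjusted p 0.000339). Car9, a membrane form of gastric epithelium, was higher in forestomach than in lung (-1.90 ± 0.52, adjusted p 0.00958). Glandular stomach marker means of the vehicle forestomachs ranged from 0.91 to 6.04, and the part of that tissue in Car9 was not tested.

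Carbonic anhydrases work beside carriers of bicarbonate, and their genes were checked in the same way. None of 15 bicarbonate transporters was called at any dose in any tissue, where between 0% and 1.93% of all genes were called, so little can be read from that count. In lung at the high dose their median log2 change was 0.07. Between vehicle tissues, 13 of the 15 were called in at least 1 comparison (41.2% of all genes were), namely Cftr, Slc26a3, Slc26a4, Slc26a6, Slc26a9, Slc4a1, Slc4a2, Slc4a3, Slc4a4, Slc4a5, Slc4a7, Slc4a8 and Slc4a9.

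Among cell type markers in lung, those of the capillary endothelium split at the high dose. Of 14 listed, 4 rose and 3 fell, where 1.93% of all genes were called, and the median change was 0.02. Those that rose were Emcn, an endothelial sialomucin (from a mean of 3.02 to 4.83), Cdh5 and Pecam1, which encode endothelial junction proteins (changes 0.82 and 0.74), and Prx (0.60). Those that fell were Gpihbp1, which anchors lipoprotein lipase to capillaries (-3.36), Ednrb, an endothelin receptor (-1.72 and -1.49 by 2 probes), and Plvap (-0.76). The fall of Plvap was called by its dimmer probe only. Its brighter probe, at 4.58 to 5.16 in vehicle and 4.18 to 4.86 in high-dose lungs, was not called. The called Plvap probe did not pass with median centring (-0.28), nor did Prx with the authors' deposited values (0.55). The list was chosen with results of these lungs known. The mean over the list ranged from 4.18 to 4.70 in vehicle lungs and from 4.00 to 4.42 at the high dose, and all 14 were above background on every lung array. Alveolar type I and type II markers held 0 called genes at each dose, with means of 4.87 to 5.23 and 5.04 to 5.20 in vehicle lungs and 4.87 to 5.05 and 4.98 to 5.27 at the high dose. The part of any cell type in the fall of Car14 was not tested.

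The genes whose log2 ratio ran most like that of Car14 over the 19 lung arrays were sought among 26034 probes above background on all arrays of at least 1 group, as a description, since these arrays share the dose steps that selected Car14. The 10 of highest Pearson r were Nxph3 (0.919), Gprin3 (0.912), Ahcyl2 (0.899), Arntl (0.894), Egfr (0.887), Ednrb (0.884), Ccnjl (0.883), Ikzf4 (0.882), Sft2d2 (0.881) and Syt15 (0.868). Ednrb, for example, had means of 4.30, 3.77, 3.06 and 2.57 from vehicle to the high dose, and Arntl of 0.40, -0.67, -0.96 and -1.35. Over the 12 group means of all tissues the 5 highest were other genes, Sema6d (0.959), Tmem158 (0.958), Clca3a1 (0.956), Tnfrsf9 (0.950) and Dixdc1 (0.946), and these points carry the low-signal liver slide in every liver mean.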

How the data were processed

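The deposited scanner files hold Agilent intensity values per spot, per the file headers made with Feature Extraction 10.7.3.1 on a design annotated on mm9. Each array carried tissue RNA in Cy5 and reference RNA in Cy3, with no dye swap. From the median intensities, with no background correction, log2 ratios were made by loess within each array (limma 3.58.1, R 4.3.3), control spots were left out and spots of a probe averaged. The authors' deposited log2 values for the same arrays, a separate table of their normalised ratios, were an alternative. Accessions were named through RefSeq GRCm38.p6, which matched 26413 of 55681 probes, and the others kept the file's name.

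limma was fitted per tissue over its 4 dose groups, over the 15 vehicle arrays between tissues, and over liver and forestomach together for the difference of effects. P-values were adjusted by Benjamini-Hochberg over all probes. A gene was called where 1 of its probes changed at least 1.5-fold with an adjusted p not above 0.05. Named by rule are all 8 members, genes of the family and bicarbonate transporter lists called in any comparison, and the 10 genes (over lung arrays) and 5 genes (over group means) of highest r with Car14. Cell type markers and the neighbours of Car14 in rank were named after their values were seen. One further gene list is not reported here. The members and lists were chosen with earlier results of these data known. Replicates are separate mice. Same-numbered arrays come from the same mouse, and the correlation of vehicle arrays' deviations from group means lay between -0.12 and 0.12 for lung and liver, -0.04 and 0.09 for lung and forestomach and -0.03 and 0.13 for liver and forestomach, so mouse was an alternative block. For a probe not well above background in a group, a fold is a lower bound of Cy5 signal (after loess and Aquantile) against the lowest signal well above background. The fit was tested on simulated data.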

Additional observations from a re-analysis of the deposited data

Results flagged for a closer look

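Of 120 groups of a probe in a tissue and dose, 14 held an array far from the others of its group by Dixon's test, where chance gives about 1 in 20. In vehicle liver, mouse 5, on the low-signal slide, stood apart for Car14 (0.85), Car2 (-0.0892), Car4 by probe 2 (0.52), Car8 by probe 1 (0.33) and probe 2 (-0.18) and Car12 (-0.21). In low-dose lung, mouse 6 stood apart for Car8 by probe 1 (1.55) and probe 2 (1.30) and for Car12 (-0.0748). The remaining arrays were vehicle mouse 3 for Car14 in lung (2.11), medium-dose mouse 11 for Car4 by probe 2 in lung (1.81), high-dose mouse 20 for Car3 in forestomach (3.51), and vehicle mouse 1 in forestomach for Car8 by probe 1 (0.62) and Car12 (1.89).

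Car5b had opposite signs of change in liver and lung. At the medium dose the change was 0.15 in liver and -0.32 in lung, a difference of 0.47, and at the high dose 0.23 and -0.19, a difference of 0.42. Neither difference was tested, and Car5b was not well above background on any liver array.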

How the results depend on the processing

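Of the counts of called members recomputed under the alternatives, 197 stayed within 1.5 times the value reported and 7 did not, and no called change of a member reversed its sign. With median centring in place of loess, 0 members were called in low-dose lung and 3 in high-dose lung (Car14, Car4 and Car8), where 3208 genes in all were called against 717. With the slide as a block, 1 member, Car2, was called in high-dose liver, with 128 genes in all, and without the low-signal slide again 1, Car2, with 388. Without that slide, 1 member, Car2, also differed in its high-dose effect between liver and forestomach, with 85 genes in all. The cause of these shifts was not tested. The counts in lung include Car14, which these arrays selected, so nothing is read from them.

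With any single mouse omitted, there were 1 to 1 members called in low-dose and medium-dose lung, 1 to 2 in high-dose lung (2 without mouse 16 or mouse 19, when Car8 was added), 0 to 0 in liver and forestomach at every dose and between the medium and low doses in lung, 4 to 5 between vehicle lung and liver, 5 to 6 between lung and forestomach and between liver and forestomach, and 0 to 0 for the difference of effects. The lung counts against vehicle include Car14, which these arrays selected, so nothing is read from them. With all mice, 0.449%, 0.638% and 1.93% of all genes were called in lung at the low, medium and high doses. With the mouse as a replicate block, 4, 6 and 6 members differed between vehicle tissues and 0 in the high-dose effect, and no call of a member changed. Signal over background limits Car5b in all tissues, Car8 in forestomach, Car13 and Car4 by probe 1 in liver, and, on the low-signal liver slide, all member probes but those of Car3 and Car4 by probe 2, which were above background on all 8 of its arrays, with Car14 on 4.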
